A study of Rattus norvegicus with 4 samples.

Results

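The genes described here encode peptide precursors and granins, namely Penk, Pdyn, Calca, Calcb, Adm, Npy, Scg2 and Vgf. They were found by gene symbol and make up 8 of the 17327 genes listed in the count files. They were compared in OLN93 cells, a rat oligodendroglial cell line that immortalized spontaneously. The 2 control libraries are labelled Sox10-positive, and the paper describes their source as control clones. The 2 Sox10-deficient libraries come from clones A and B. In these, CRISPR/Cas9 genome editing with different guide RNAs had inactivated Sox10, a transcription factor of oligodendroglial cells. The labels number the Sox10-deficient libraries 1 and 2. Number 1 is called clone A here and number 2 clone B, a match that the labels do not state. All libraries come from 1 cell line, and differences between clones cannot be told apart from differences between libraries. The set was chosen with the results for these libraries known, with Penk selected on its higher and Calcb on its lower counts in the clones. The contrast between clones and controls is therefore described for the 8 genes without a test.

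Neuropeptides are cut out of larger precursor proteins on their way through the secretory pathway and are released from dense-core vesicles, after which they act on G protein-coupled receptors of neighbouring cells. Granins are acidic proteins of the same vesicles, and some of them are themselves precursors of peptides. The genes are best known from neurons and endocrine cells. Several of them respond to cAMP and calcium through a cAMP response element (CRE), which is bound by CREB and related factors.

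RefSeq windows around the start site, with 250 bases before it, were at hand for 6 of the 8 genes on assembly GRCr8, namely Pdyn, Calca, Npy, Vgf, Scg2 and Adm. The complete CRE, TGACGTCA, which reads the same on both strands, occurred in the windows of Vgf and Scg2, the granin genes of the set. It began 90 bases before the start of Vgf and 123 bases before that of Scg2, and was found in 1.83% of all 33469 windows of 300 bases. The 250 bases before the start of these genes are printed because both share this element and were counted in the libraries, with the CRE in capitals. The Scg2 sequence lies at chr9:88256867-88257116 and the Vgf sequence at chr12:25277021-25277270, both on the minus strand of GRCr8, which is not the assembly of the counts.
Scg2: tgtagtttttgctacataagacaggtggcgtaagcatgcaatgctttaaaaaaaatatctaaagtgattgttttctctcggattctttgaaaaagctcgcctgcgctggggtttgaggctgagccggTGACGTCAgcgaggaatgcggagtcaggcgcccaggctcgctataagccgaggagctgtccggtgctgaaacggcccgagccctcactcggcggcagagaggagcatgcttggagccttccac
Vgf: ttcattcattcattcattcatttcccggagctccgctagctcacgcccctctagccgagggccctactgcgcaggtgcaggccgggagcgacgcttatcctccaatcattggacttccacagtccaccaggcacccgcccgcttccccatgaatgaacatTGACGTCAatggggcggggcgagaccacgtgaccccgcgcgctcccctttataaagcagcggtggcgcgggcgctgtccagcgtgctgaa

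The CRE half-site TGACG, searched on both strands, occurred in these elements and 112 bases before the start of Calca, and in 21.2% of all windows. The AP-1 letters TGANTCA and the Sox-type letters ACAAAG and ACAATG, also searched on both strands, had no match in the 6 windows. They occurred in 7.33%, 18.8% and 13.2% of all windows. The letters TATAAA were present in the windows of Pdyn and Vgf and in 14.2% of all windows. These matches describe the letters only.

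Library totals ranged from 60951 to 104017 deposited counts, and between 7319 and 8280 genes had at least 1 count. Counts were scaled to counts per 1000000 counts of the library (CPM) with the TMM factors of edgeR. A count of 0 was read as allowing up to 3 counts, which correspond to between 29.0 and 48.2 CPM in the libraries. Intervals and this floor cover counting error only. Sox10 itself was counted 28 times in control 1 and 64 times in control 2, as compared with 0 in clone A and 14 in clone B. Of the 8 genes, 5 had at least 1 count and 3 had none in any library, and only Penk, Calcb and Scg2 passed the filter of edgeR, which kept 2438 genes for testing.

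Penk (ENSRNOG00000008943) encodes proenkephalin, the precursor of the Met- and Leu-enkephalins, which act on opioid receptors. Clone A had 55 counts of Penk and clone B had 27, whereas control 1 had 3 and control 2 had 0. Scaled to depth, clones A and B reached 636 and 306 CPM, and the controls 48.2 and 0 CPM. Both clones were thus far above both controls, and even the lower clone exceeded the higher control. The mean was 24.1 ± 34.1 CPM in the controls and 471 ± 233 CPM in the clones (SD, n = 2 each). From the summed counts, the clones were 25.9-fold higher, with an exact 95% interval of the ratio from 8.56 to 128. The log2 fold change of edgeR was 4.56. The size of the difference rested on control 2, since the ratio was 9.74 without it, and on the clones, with ratios of 35.1 for clone A alone and 16.9 for clone B alone. Without control 1 the remaining control had 0 counts and no ratio was given. Pdyn, which encodes prodynorphin, the precursor of the dynorphins, was at 0 counts throughout, and at this depth no difference was detectable.

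Calcb (ENSRNOG00000011074) encodes the beta form of calcitonin gene-related peptide (CGRP), a vasodilator peptide of sensory neurons. It had 24 counts in each control and 0 in both clones. The controls had 385 and 232 CPM, with a mean of 309 ± 108 CPM (SD, n = 2), while the clones were listed at 0. Set against 3 counts in each clone, the clones had an at least 8.99-fold lower level of Calcb. This limit was 11.2-fold from control 1 alone and 6.76-fold from control 2 alone, so that its size depended on the control used. It takes the counts of the controls without their counting error. Calca, the paralogous gene that gives rise to calcitonin and the alpha form of CGRP, had 0 counts in all 4 libraries. Calca and Calcb adjoin each other on GRCr8 and are similar in sequence, so that reads which fit both genes would not count as unique, and how many were lost in this way was not tested. Insc, the next gene beyond Calcb, was counted 5 times in control 2 and not in the other libraries.

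Adm (ENSRNOG00000027030) encodes adrenomedullin, a vasodilator peptide of the CGRP family whose gene is known to be induced by hypoxia. It did not pass the filter, with 7 counts in clone A, 2 in clone B, 1 in control 2 and 0 in control 1. Clone A reached 80.9 CPM and clone B 22.7 CPM, whereas the controls were at 0 and 9.68 CPM. The clones lay above the controls, but the count of clone B was under the floor. From the summed counts, Adm was 8.53-fold higher in the clones, with an exact 95% interval from 1.18 to 374. Without clone A the ratio was 3.76 with an interval from 0.196 to 222, so that no difference was detectable for clone B alone.

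Npy encodes neuropeptide Y and was listed at 0 in all 4 libraries. No difference was detectable for it at this depth.

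Scg2 (ENSRNOG00000015055) encodes secretogranin II, a granin that is the precursor of secretoneurin. Its counts were 53 in clone A and 9 in clone B, next to 31 in control 1 and 25 in control 2. In CPM, the controls had 498 and 242, clone A 613 and clone B 102. The clones enclosed the controls, with clone A as the highest and clone B as the lowest of the 4 libraries. The means were 370 ± 181 CPM in the controls and 358 ± 361 CPM in the clones (SD, n = 2 each), and the log2 fold change of edgeR was 0.0049. The ratio of the summed counts was 1.05, with an exact 95% interval from 0.719 to 1.53. This mean stands for opposite values of the clones, as the ratio to the controls was 1.81 for clone A alone (interval from 1.22 to 2.69) and 0.302 for clone B alone (interval from 0.131 to 0.615). The controls also differed, since control 1 was 2.06-fold above control 2 (interval from 1.18 to 3.63).

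Vgf encodes a neurotrophin-inducible protein that is counted among the granins in the wider sense. It was counted 5 times in control 2 and 0 times in control 1, next to 2 counts in clone A and 1 in clone B. The clones, at 23.1 and 11.3 CPM, lay between control 1 at 0 and control 2 at 48.4 CPM, and the groups overlapped. The ratio of clones to controls was 0.569 with an exact 95% interval from 0.0883 to 2.92, which spans a decrease as well as an increase.

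**Figure D1:**
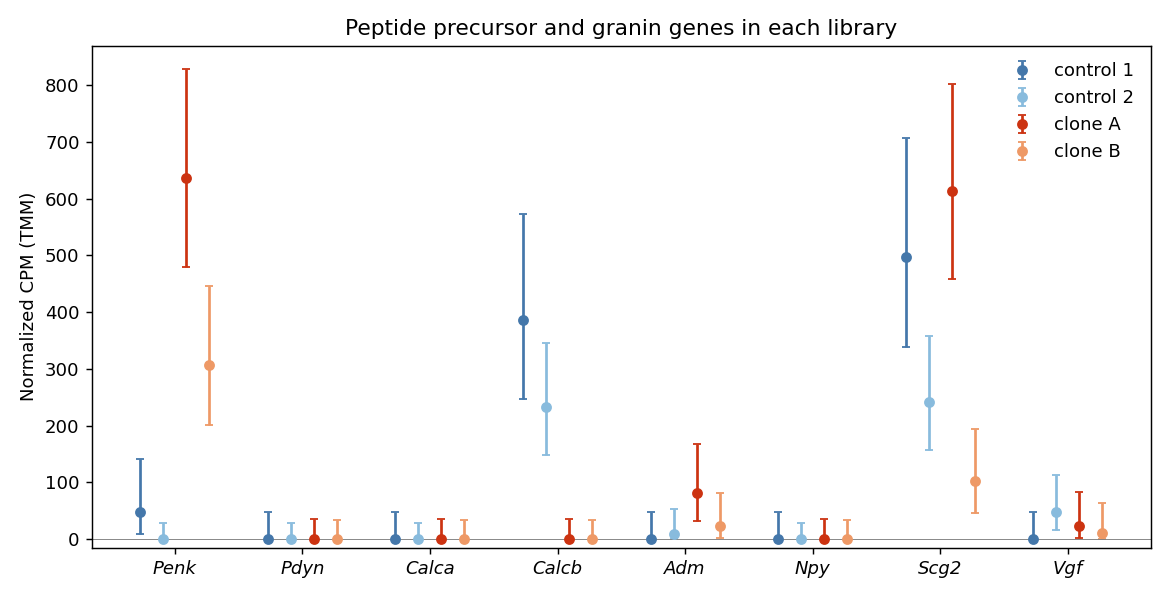
CPM (y axis, TMM scaling) of the 8 genes (x axis) in the 2 control libraries and in clones A and B, with 1 point per library. Bars are exact 95% Poisson intervals of the single count, and for a count of 0 they reach up to 3 counts. Penk is highest in the clones, at 636 and 306 CPM, Calcb has counts in the controls only, at 385 and 232 CPM, and Scg2 ranges from 102 CPM in clone B to 613 CPM in clone A.

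Among the genes tested across the whole table, 2.50% were called lower and 1.11% higher in the clones by edgeR's quasi-likelihood test, with a change of at least 2-fold and a Benjamini-Hochberg adjusted p of 0.05 or less. With an unadjusted p these shares were 6.97% and 4.63%. Penk and Calcb passed the filter only through the group in which they were high and had been chosen on this same contrast, so no call is given for them or for Scg2. Both clones lay below both controls for 21.5% of the tested genes and above them for 21.6%. Of the 3 tested genes of the set, Calcb was in the first of these groups and Penk in the second, and Scg2 overlapped.

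The clones also differed from each other. Clone A was higher than clone B for all 4 genes that had counts in the clones. The ratio of clone A to clone B was 6.01 for Scg2, with an exact 95% interval from 2.94 to 13.9, and 2.08 for Penk, with an interval from 1.29 to 3.43. For Adm it was 3.57 with an interval from 0.680 to 35.2, and for Vgf 2.04 with an interval from 0.106 to 120, so that no difference was detectable for these genes at this depth. Over all tested genes, 10.4% were at least 2-fold higher in clone A and 8.78% at least 2-fold higher in clone B. A ratio as large as that of Scg2 occurred in 1.15% of the tested genes. With 1 library per clone, this compares libraries and has no replicate check. Clone A was also the library with 0 counts of Sox10, whereas clone B had 14, and the part of this difference in the values of Scg2 and Penk was not tested.

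**Figure D2:**
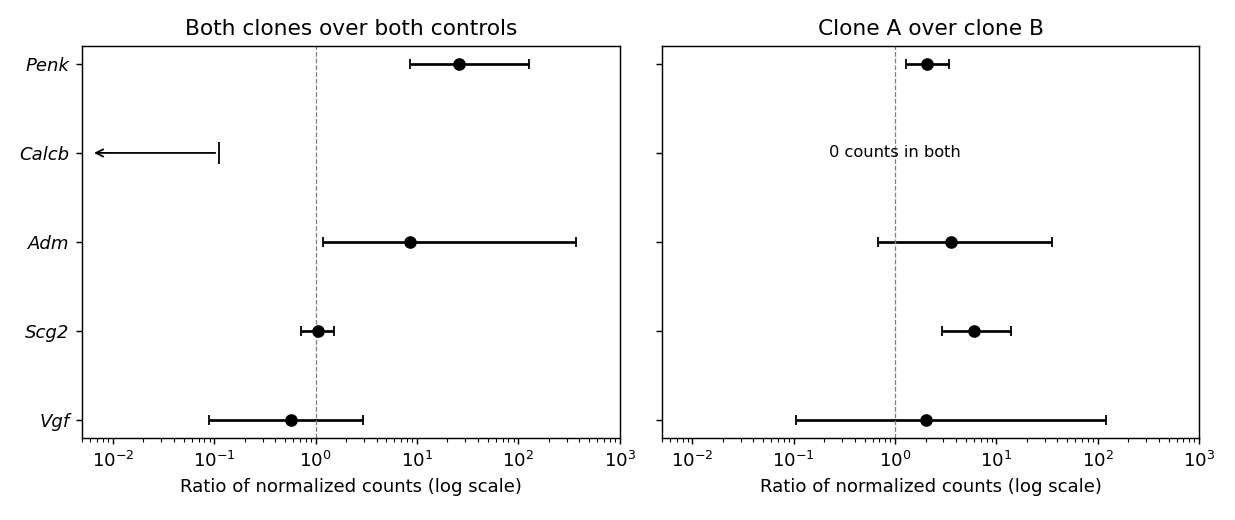
Ratio of normalized counts (x axis, log scale) for the 5 genes with counts (y axis), with both clones over both controls on the left and clone A over clone B on the right. Points are ratios with exact 95% intervals that cover counting error only, the dashed line marks a ratio of 1, and the arrow for Calcb starts at the limit given by 3 counts per clone, 0.111. Penk lies at 25.9 on the left, and Scg2 lies at 1.05 on the left and at 6.01 on the right.

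The table of the authors' comparison gives a mean normalized count over the libraries, on a scale far above the deposited counts. The paper reports far more reads per library than the deposited totals hold. Some genes with an authors' mean of 0, Mog among them, nevertheless had deposited counts. The cause of the gap between the sources was not tested. The authors' mean is 12579 for Penk, 11072 for Scg2, 1358 for Calcb and 589 for Adm. It is 1 for Calca and 0 for both Pdyn and Npy, so that these genes were near or at 0 in both sources. Vgf was not matched to this table by its symbol and is left out here. Among 5353 genes with a mean of at least 500, a library's deposited count amounted in the median to 0.384% of the authors' mean, with 80% of the genes between 0.177% and 0.784%. The share was 0.266% for Scg2 and 0.424% for Adm, near the median. It was 0.169% for Penk and 0.884% for Calcb, just outside that range on opposite sides. The cause of these unequal shares was not tested.

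The genes with the most similar pattern were searched by the root mean square difference of log2 CPM over the 4 libraries, after each gene had been centred on its own mean and 2 counts had been added as a prior. For Penk these were Zfp385a with a difference of 0.457, Col6a2 (0.726), Prph (0.735), Spp1 (0.746) and Dnajc17 (0.759), where the median over all tested genes was 1.91. Spp1 encodes the secreted protein osteopontin, Col6a2 a chain of collagen VI and Prph the intermediate filament protein peripherin. For Calcb they were Slc35f1 (0.159), Erbb3 (0.355), S100b (0.425), Plekha7 (0.428) and Rassf4 (0.441), with a median of 1.93. Erbb3 is a neuregulin receptor, and S100b is a calcium-binding protein of glial cells. Slc35f1, Erbb3 and Plekha7 were also at 0 counts in both clones. For Scg2 they were Mdh1 (0.112), Glrx3, Vwa5b2 (0.144), Vac14 (0.149) and Tfg (0.190), with a median of 1.00. These genes had between 2 and 4 counts in clone B. With 4 libraries, and with counts as low as these, likeness describes the pattern in these libraries only.

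**Figure D3:**
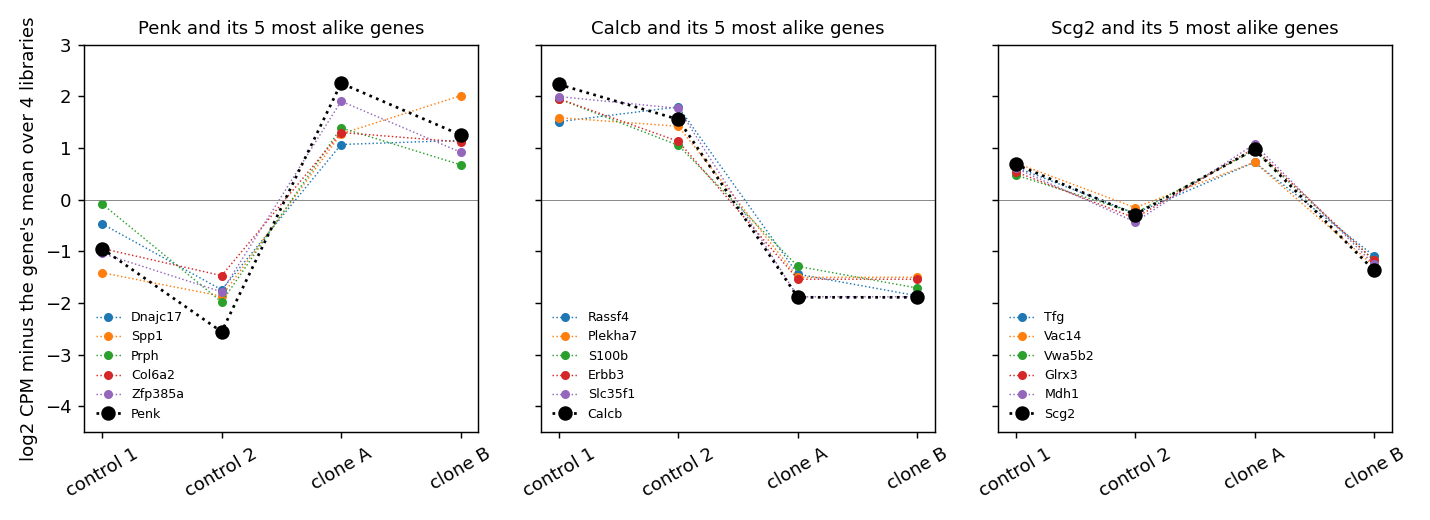
Log2 CPM minus the gene's mean (y axis) in the 4 libraries (x axis) for Penk, Calcb and Scg2, each in black with its 5 most similar genes in colour. Dotted lines connect the points of a gene and imply no order. The genes around Penk are high in both clones, those around Calcb are high in both controls, and those around Scg2 are highest in clone A and lowest in clone B.

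The machinery that makes, stores, receives and breaks down such peptides was followed with 6 lists of genes. Of the 157 list genes used from the count files, 17 passed the filter. Pam, Hif1a, Rela and Ctsl, like Penk and Calcb, passed it only through the group in which they were high. None was called after adjustment by edgeR's quasi-likelihood test, and DESeq2 called none either. With an unadjusted p, 2 of the 17 were at least 2-fold higher and 1 was at least 2-fold lower, against the shares of 4.63% and 6.97% over all tested genes. Their log2 fold changes had a median of 0.0077, next to -0.0059 over all tested genes. Standard errors given from here on are the absolute log2 fold change divided by the square root of the F statistic of edgeR's test.

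Among 16 genes for convertases, amidation and trimming, 4 were tested and 7 had no count in any library. The latter include Pcsk1 and Pcsk2, the prohormone convertases of neuroendocrine cells, and Cpe, the carboxypeptidase that trims their products. Furin, a convertase of most cell types, was counted 4 times in clone A, 8 times in clone B, 5 times in control 2 and 0 times in control 1. Pam, the enzyme that amidates peptides such as CGRP, adrenomedullin and neuropeptide Y at their carboxy end, was counted 22 and 18 times in clones A and B, but only 3 and 5 times in controls 1 and 2. This corresponded to 48.3 ± 0.157 CPM in the controls and 229 ± 35.6 CPM in the clones (SD, n = 2 each), without overlap. Both clones lay above both controls for 21.6% of all tested genes. Control 1 lay at its floor of 48.2 CPM, and the small SD of the controls leaves out their counting error. The log2 fold change of Pam was 2.21 with a standard error of 0.61, at an unadjusted p of 0.00201 and an adjusted p of 0.0527 from edgeR. Ctsl, a lysosomal protease that also processes proenkephalin, was at 177 and 174 CPM in controls 1 and 2 and at 80.9 and 22.7 CPM in clones A and B. The value of clone B rested on 2 counts, under the floor of 3 counts. The log2 fold change of Ctsl was -1.74 with a standard error of 0.71, at an unadjusted p of 0.0248 and an adjusted p of 0.230 from edgeR. Ctsb, another lysosomal protease, and Cpd, a carboxypeptidase of the trans-Golgi network, differed by -0.030 (standard error 0.37) and -0.69 (standard error 0.42) on the log2 scale.

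For granins and the machinery of dense-core vesicles, 1 of 23 genes was tested and 8 had no count, among them the granin genes Chgb and Scg3. Chga, the gene of chromogranin A, was counted once in clone A, 2 times in clone B and not in the controls. The tested gene was Vamp2, which encodes a vesicle SNARE and differed by 1.09 (standard error 0.66) on the log2 scale. It had 1 count in control 1 and 14 in control 2, and the difference was 0.41 without control 1 and 3.37 without control 2. Among 40 other peptide precursors, 34 had no count in any library. Only Nucb2, the precursor of nesfatin, was tested, with a log2 fold change of -0.68 and a standard error of 0.57.

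The receptors of the peptides were hardly counted. Of 28 genes for receptors and their partners, 15 had no count, among them the opioid receptor genes Oprd1 and Oprk1, the CGRP and adrenomedullin receptor gene Calcrl, and Npy2r and Npy5r. The opioid receptor gene Oprm1 was counted 3 times in clone A, once in clone B and 2 times in control 2. The authors' mean for Oprm1 is 1. Ramp1, whose product makes Calcrl a CGRP receptor, had 1 count in control 1 and 0 elsewhere, at an authors' mean of 192. The paper lists Ramp1 among its candidate Sox10 targets in oligodendrocyte precursors. It had selected these as at least 2-fold lower after Sox10 inactivation, with a limit on the p-value as well. The candidates also had to show Sox10 binding nearby in the central nervous system and preferential expression in the precursors. The sole tested gene, C1qbp, had a log2 fold change of -0.10 with a standard error of 0.64. Of 16 genes for peptidases, 6 had no count, among them Mme, the gene of the enkephalin-degrading neprilysin. The 3 tested peptidase genes, Ide, Erap1 and Npepps, had log2 fold changes of 0.71, 0.47 and 0.19 with standard errors of 0.48, 0.46 and 0.44.

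Of 34 genes for CREB, AP-1 and other regulators of peptide genes, 7 were tested. The AP-1 genes Jun and Fosl1 had log2 fold changes of -0.22 and 0.0077 with standard errors of 0.29 and 0.35, and Atf4 and Tfap2a had 0.39 and -0.080 with standard errors of 0.40 and 0.47. Jun had 618 ± 56.6 CPM in the controls and 532 ± 16.9 CPM in the clones (SD, n = 2 each). Creb1 had between 0 and 3 counts per library and was not tested. Hif1a encodes the oxygen-regulated subunit of hypoxia-inducible factor 1. It was at 185 and 193 CPM in clones A and B and at 48.2 and 58.1 CPM in controls 1 and 2. These values rested on 16 and 17 counts in the clones and on 3 and 6 in the controls, with control 1 at the floor. The log2 fold change of Hif1a was 1.78 with a standard error of 0.63, at an unadjusted p of 0.011 and an adjusted p of 0.148 from edgeR.

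**Figure D4:**
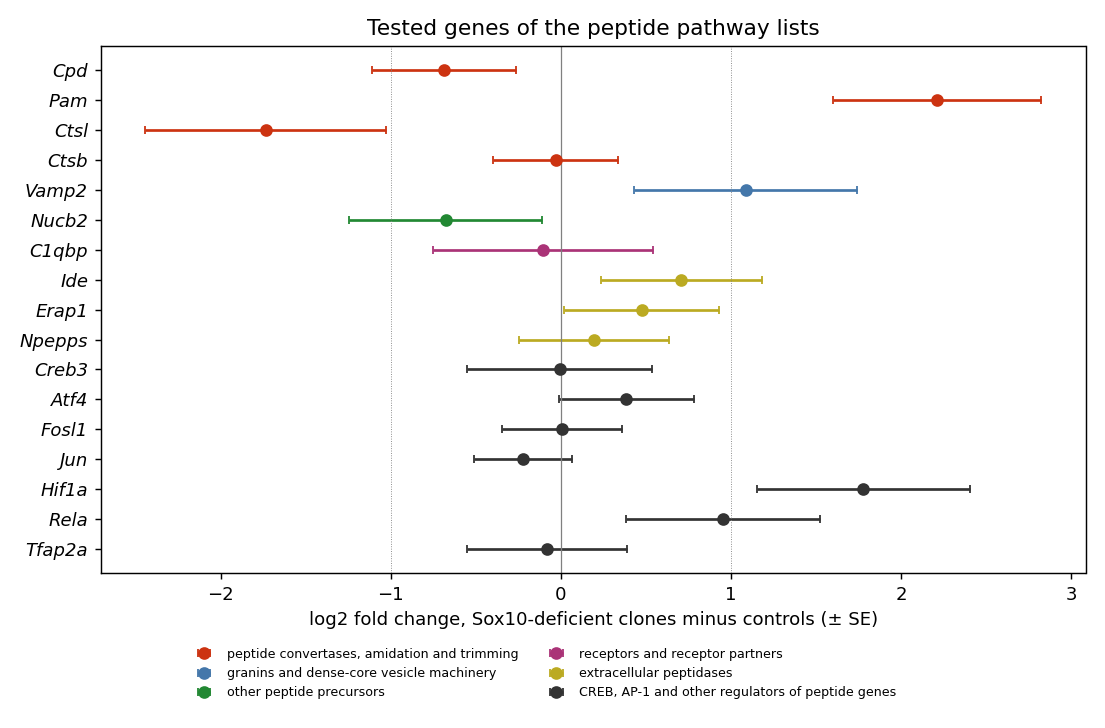
Log2 fold change of the Sox10-deficient clones against the controls (x axis) for the 17 tested genes of the 6 pathway lists (y axis), coloured by list, with bars of 1 standard error. The standard errors were derived from the F statistic of edgeR's test. Dotted lines mark 2-fold changes in either direction. Pam at 2.21 and Hif1a at 1.78 lie farthest to the right and Ctsl at -1.74 farthest to the left, and none of the genes passed the adjusted threshold.

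The identity of the cells was followed with lists of marker genes. Of 18 oligodendroglial markers, 16 had counts, with Mag and Cldn11 at 0, and their summed level was 3194 to 3870 CPM in the controls and 1939 to 2174 CPM in the clones. By the adjusted criterion, 3 of the 9 tested markers fell, namely the edited gene Sox10, Cnp and S100b, and 0 rose. Of all tested genes, 2.50% met this criterion as lower and 1.11% as higher. The summed level includes these 3 markers. A sum without them was not taken, so the difference in the sum is not shown for the other markers. Nkx2-2, Sox6, Mog and Myrf had log2 fold changes of -0.77, -0.42, -0.40 and -0.75. Their standard errors were 0.38, 0.45, 0.51 and 0.67, and none of them was called. In controls 1 and 2, Sox10 was at 450 and 620 CPM, Cnp at 996 and 658 and S100b at 418 and 213. In clones A and B, Sox10 was at 0 and 159 CPM, Cnp at 405 and 227 and S100b at 23.1 and 11.3. The S100b values rested on 2 counts in clone A and 1 in clone B, under the floor of 3 counts. Cspg4 and Pdgfra, markers of oligodendrocyte precursors, had log2 fold changes of 0.93 and 0.22 with standard errors of 0.35 and 0.34. Of 19 neuronal and neuroendocrine markers, 11 were at 0 in all libraries, among them Rbfox3, Syt1, Stmn2 and Th. The summed level of this list was 1140 to 1220 CPM in the controls and 329 to 578 CPM in the clones. Of its 3 tested genes, Nefm fell, from 658 and 668 CPM in the controls to 289 and 11.3 CPM in clones A and B (adjusted p = 0.0437, quasi-likelihood test of edgeR). The value of clone B rested on 1 count. Nefm was not called with the size factors of DESeq2 in edgeR, with DESeq2 or with the replicate number as a block. Without Nefm the sum was 482 to 552 CPM in the controls and 289 to 318 CPM in the clones. Prph, a filament gene of neurons that was among the genes most similar to Penk, is not part of the list.

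The summed level of 10 astrocyte markers was 209 to 339 CPM in the controls and 340 to 416 CPM in the clones. This order turned on Sox9, the sole tested gene of the list, which rose, as the sum without it was 209 to 319 CPM in the controls and 69.4 to 136 CPM in the clones. Fgfr3 had 5 and 17 counts in controls 1 and 2 as compared with 0 and 2 in clones A and B, and 4 genes of the list, among them Aqp4 and Aldh1l1, were at 0. For 10 markers of Schwann cells and neural crest, the sum was 1510 to 1568 CPM in the controls and 306 to 520 CPM in the clones. Ngfr and Erbb3 were called lower among 4 tested genes, by the adjusted criterion that 2.50% of all tested genes met as lower. Of the called markers, S100b, Sox9, Ngfr and Erbb3 passed the filter only through the group in which they were high. Of 13 fibroblast and vascular markers, 8 were at 0, and of 8 microglia and macrophage markers, 5 were at 0, with none called in either list. Of the 7 markers called in all, 0 were called when control 2 was left out, 4 with DESeq2 and 3 with the replicate block. The authors' mean is 0 for Mog, Olig2 and Dbh, although these markers had deposited counts. Without Mog and Olig2, the oligodendroglial sum was 3020 to 3565 CPM in the controls and 1814 to 2024 CPM in the clones, and without Dbh the neuronal sum was 1044 to 1133 CPM and 261 to 555 CPM. The sums without single genes were added after the values were seen. The part of these shifts in the values of Penk and Calcb was not tested, and in bulk RNA fewer cells of a type and less RNA per cell cannot be told apart.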

How the data were processed

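RNA-Seq libraries from 2 control and 2 Sox10-deficient OLN93 samples were used. With STAR 2.5.1 the authors aligned their reads to rn5, and they deposited HTSeq counts of uniquely mapped reads per gene symbol, without normalization. Gene identifiers of Ensembl release 75 are named as the basis of the counting. The strand option is not given in the sources used here, so overlapping genes cannot be told apart. In their comparison table the authors deposited a mean normalized count in whole numbers, used here as a score, and the fold changes and p-values of DESeq2, which were not used.

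The quasi-likelihood test of edgeR 4.0.16 under R 4.3.3 was applied after filterByExpr and TMM scaling. Its model held the condition alone, and p-values were adjusted over 2438 genes. The test was checked on simulated counts. DESeq2 1.42.0, other scalings, other filters, the replicate number as a block and leaving out each library were alternatives. Intervals of ratios are exact conditional binomial intervals from scipy 1.17.1. A gene of the lists is not reported here and was left out of their counts. The members and lists were chosen with earlier results of these data known. Named are the 8 members, pathway genes with a 2-fold change at an unadjusted p up to 0.05, up to 4 tested genes of highest mean CPM per list, the 5 most similar genes for each tested member, and Sox10. Genes named beyond these were chosen after their values were seen. The paper describes independent clones. Beyond this and the labels nothing states separate cultures, so p-values measure the spread between these libraries.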

Additional observations from a re-analysis of the deposited data

How the results depend on the processing

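Penk, Calcb and Scg2 did not enter the fit with at least 10 counts in every library. Over all tested genes, the number called lower fell from 61 to 28 and the number called higher from 27 to 8 with DESeq2. With the replicate block, the numbers were 28 and 11. The replicate numbers are not stated to pair the libraries, and the correlation of same-numbered deviations was 0.12. With at least 10 counts in every library, 23 genes were lower. Without a filter, 44 were higher. With the unadjusted p, 170 were lower and 113 higher. Leaving out 1 library gave 2 to 70 lower and 0 to 39 higher genes, with the lowest numbers without control 2. The cause of these shifts was not tested, except that the stricter filter tests fewer genes. Of the pathway genes, 0 were called in either direction when any library was left out. With the unadjusted p 1 was lower and 2 were higher. Pam was called with library totals alone, which gave 1 higher gene, and its adjusted p from edgeR and DESeq2 ranged from 0.0453 to 0.465. That of Hif1a ranged from 0.146 to 0.681 and that of Ctsl from 0.209 to 0.808. Without a filter 1 gene, Bdkrb2, was called higher.

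Of 156 alternative values for 15 named pathway genes, 16 changed sign, in genes with small changes. Ctsb had log2 fold changes of 0.0032 without a filter, 0.0014 with at least 10 counts and 0.0078 with the replicate block. Fosl1 had -0.012 with library totals and -0.0025 with the block, and Tfap2a had 0.0059 with the block. Across the fits that left out 1 library, the range was -0.58 to 0.58 for Ctsb, -1.63 to 0.62 for C1qbp, -0.11 to 0.42 for Npepps, -0.10 to 0.87 for Atf4, -0.15 to 0.10 for Fosl1 and -0.57 to 0.88 for Tfap2a. Scg2 ranged from -1.78 without clone A to 0.79 without clone B, and was -0.016 with library totals, -0.041 with DESeq2 and -0.25 with the replicate block. Penk ranged from 3.22 without control 2 to 8.44 without control 1, where its fold depends on the prior count.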

Other observations

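Some genes of the lists that were too low for the filter had counts that separated the groups. They were chosen after their values were seen. Hid1, which encodes a protein needed for the formation of dense-core vesicles, had 11 counts in each control and 2 in each clone. Without a filter its adjusted p from edgeR was 0.212. Snap23, a SNARE gene of most cell types, had 0 counts in both controls and 5 in each clone, with an adjusted p of 0.292 in the same fit of edgeR. The bradykinin receptor gene Bdkrb2 had 4 counts in clone A, 15 in clone B and 0 in either control, with an adjusted p of 0.0141 in the same fit of edgeR. The authors' mean normalized count for Bdkrb2 is 1. Agt, the gene of angiotensinogen, was counted 4 and 7 times in controls 1 and 2 and 7 and 3 times in clones A and B, while the authors' mean is 0. More widely, 215 genes of the pathway and marker lists were found in the authors' table, and 70 of them have a mean of 0 there. Of these, 10 had at least 1 deposited count. Mog had the most, with 12 and 18 counts in controls 1 and 2 and 13 and 11 in clones A and B. Genes with a low mean above 0 are outside this count. Among them is Csf1r, with a mean of 13 and with 4 and 13 counts in controls 1 and 2 and 5 and 4 in clones A and B. The cause of this disagreement was not tested.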
